A study of Mus musculus with 90 samples.

Results

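The earliest response of a macrophage line to bacterial lipopolysaccharide was measured after 1 h of treatment. RAW 264.7 cells, a mouse macrophage line transformed by a leukaemia virus, were cultured for 1 h with 100 ng/ml LPS and 100 pM lipid binding protein, the serum protein that carries LPS to its receptor, and their RNA was compared with RNA of cells kept in medium for the same time. The comparison rests on 6 of the 90 arrays of the series, chosen by their labels. These 6 make 3 numbered sets, and in each set 1 array carried the LPS RNA in Cy5 and the other carried it in Cy3. For comparison, the same LPS dose was given for 2 h and for 4 h, and 4 further groups were treated for 1 h with 500 µM 2-methyl-thio-ATP (2MA, an agonist of purine receptors), with 5 nM interferon gamma (IFG), or with LPS and 1 of these agents together (LPS+2MA and LPS+IFG, for which the labels list no lipid binding protein). Every group had its own time in medium as control and 3 dye-swapped sets. The labels do not say whether sets were separate cultures. If they were not, the p-values measure only technical spread between these samples.

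LPS is an outer membrane component of Gram-negative bacteria. Lipid binding protein and Cd14 hand it to Toll-like receptor 4 with its partner Ly96, and the adaptors Myd88 and Ticam1 then activate the NF-kB transcription factors and the MAP kinases. Genes that need no newly made protein respond first: immediate early transcription factors, inflammatory cytokines, and the inhibitors that end the signal again. Interferon beta made in this first wave later acts back on the cells through Stat factors and raises the antiviral genes.

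All values below are log2 ratios of LPS-treated over untreated RNA, so 1 is a 2-fold higher and -1 a 2-fold lower ratio. The direction of the deposited ratio is not stated in the labels and was taken as likely Cy5 over Cy3. In this reading known LPS targets such as Tnf are higher with LPS, which is why it was taken, so their direction is partly assumed. With the sign turned, every higher call below would be a lower one. Each set gives 1 value, averaged over its pair of arrays once the array with LPS RNA in Cy3 had its sign turned, and means are given ± SD over the 3 sets unless another number is given. The array gives ratios and no levels, so the identity of the cells could not be checked by expression. Of 8 macrophage markers 5 were measured, and their ratios lay between -0.14 and 0.24 with 0 called by limma (1 at an unadjusted p under 0.05). Of 16 markers of T cells, B cells, fibroblasts and epithelial cells 14 were measured, with ratios between -0.27 and 0.23 and 0 called (1 at an unadjusted p under 0.05). Sets correlated with each other over 11600 features at r = 0.69 (sets 1 and 2), 0.63 (sets 1 and 3) and 0.73 (sets 2 and 3). Features are not independent replicates in these values. Set 3 had the narrowest arrays, with median absolute deviations of 0.15 (LPS RNA in Cy5) and 0.14 (LPS RNA in Cy3) against 0.23 to 0.29 in sets 1 and 2.

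After 1 h the response was small in number, steep in size and almost wholly in 1 direction, upward if the ratio is Cy5 over Cy3. Of 11600 features, 9760 genes and 1840 probes with no gene name, 125 (1.08%) were called changed by limma at an adjusted p under 0.05 and at least 2-fold. Of these, 119 (1.03%) were higher and 6 (0.0517%) lower, while the median of all features was -0.01. With the sign turned, 6 would be higher and 119 lower. The 119 higher features had a median of 1.61, 32 of them reached 4-fold, 12 reached 8-fold and 3 reached 16-fold. On every array with a value, all 119 had ratios above 0 and all 6 lower ones had ratios below 0. The median of the higher features was 1.71 in set 1, 1.53 in set 2 and 1.54 in set 3. The features were called on these same values, so shared signs and high medians partly follow from the call. The SD between sets had a median of 0.29 among the higher features and was highest for Egr1 at 1.22. By adjusted p alone 353 features (3.04%) were higher and 273 (2.35%) lower, so most of the shifts downward stayed under 2-fold. The count of lower features depended on the dye: 59 were called on the arrays with LPS RNA in Cy5 alone and 9 on those with it in Cy3 alone, against 127 and 155 higher. Just outside the 2-fold limit stood Hbegf (0.98), Tnip1 (0.98) and Klf6 (0.97), and just inside it Tank (1.00), Rab20 (1.01) and Dnajb1 (1.01).

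The highest ratio belonged to Nfkbiz, which encodes a nuclear IkB protein that NF-kB needs to switch on a second set of genes. It stood at 5.43, 4.48 and 5.23 in sets 1, 2 and 3, a mean of 5.04 ± 0.50 (limma adjusted p = 7.46e-17). Phlda1, a pleckstrin homology domain protein linked to apoptosis, followed with 4.13, 4.06 and 4.73, a mean of 4.31 ± 0.36. Egr1, a zinc finger factor induced by MAP kinases, had 4.20, 2.89 and 5.33, a mean of 4.14 ± 1.22 (limma adjusted p = 9.8e-08). Its single arrays ran between 2.22 and 5.83, yet the lowest of them was still above 4-fold. Dusp1, the phosphatase that switches off stress-activated MAP kinases, had 3.65, 3.70 and 4.47. Btg2, an antiproliferative protein that recruits deadenylases to mRNA, had 4.27, 3.10 and 4.05. The cytokine gene Tnf had 3.39, 3.04 and 3.90, and the surface molecule gene Cd83 3.50, 3.17 and 3.55. Egr2 had 3.10, 2.67 and 4.45, and Zfp36, whose protein tristetraprolin destabilizes cytokine mRNAs, 2.68, 2.46 and 3.76. For all 9 genes every array was above 2-fold.

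**Figure D1:**
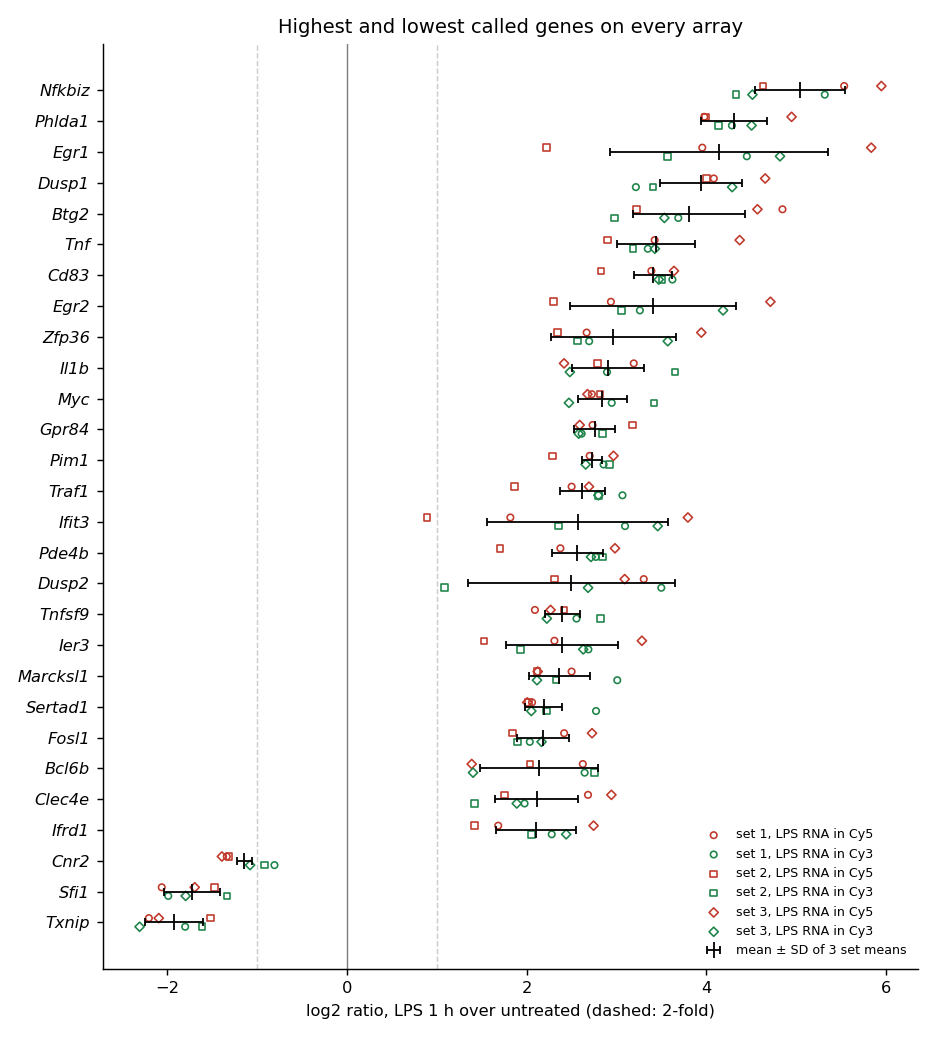
Log2 ratio of LPS 1 h over untreated on each of the 6 arrays for the 25 highest and the 3 lowest named genes with the same sign on all 6. Open symbols are arrays (circles set 1, squares set 2, diamonds set 3; red LPS RNA in Cy5, green in Cy3), and black bars are the mean ± SD of the 3 set values; dashed lines mark 2-fold. Nfkbiz leads at 5.04, Egr1, Dusp2 and Ifit3 are spread widest between sets, and Txnip is lowest at -1.93.

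The next 16 of the 25 highest genes with all 6 arrays on 1 side lay between 2.10 and 2.90. Il1b (interleukin 1 beta) had 3.04, 3.22 and 2.45, and Myc, the growth regulator, 2.84, 3.12 and 2.57. Gpr84, a receptor for medium-chain fatty acids, had 2.67, 3.01 and 2.58, and the serine/threonine kinase gene Pim1 2.78, 2.60 and 2.81. Traf1, an adaptor of TNF receptors, had 2.78, 2.33 and 2.74, and the cyclic AMP phosphodiesterase gene Pde4b 2.57, 2.27 and 2.85. These 6 genes differed little between sets, with SDs between 0.11 and 0.40. The early response gene Ier3 had 2.50, 1.73 and 2.96. The phosphatase gene Dusp2 had 3.40, 1.20 and 2.89, but its set 2 value came from 1 of its 2 kept probes, the lower one, because the other lacked an array there. Tnfsf9, a ligand of a co-stimulatory TNF receptor, averaged 2.39 ± 0.20, Marcksl1 2.36 ± 0.34, the transcriptional coregulator Sertad1 2.19 ± 0.20, the AP-1 subunit gene Fosl1 2.18 ± 0.29, the repressor gene Bcl6b 2.14 ± 0.66, the pattern receptor gene Clec4e 2.11 ± 0.46 and Ifrd1 2.10 ± 0.44. Ifit3 completed the group at 2.57 ± 1.01.

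Some values among the highest depended on which probe was read. One Ifit3 probe gave 2.57, whereas a second, left out by the filter on missing values, had a mean of -0.05 over the 6 arrays. Ifit3 also has a near-identical neighbour in the mouse genome, which a probe may not tell apart. Lynx1 stood at 3.57 ± 0.46 in the 2 sets with a value from its kept probe, and its second probe averaged 0.04. When both probes entered, Lynx1 averaged 1.23 and was no longer called (limma adjusted p = 0.246). The 2 kept probes of Dusp2 averaged 4.61 and 1.52 and were both called. Another probe, not kept, gave 3.69 to 5.14 on the 4 arrays that measured it. The Csf3 value of 1.92 came from a single kept probe, and a second with values from -1.77 to 1.52 brought it to 1.30 and out of the call (limma adjusted p = 0.0507). A further 13 genes were called by a single probe and not as a gene. Among the 31 called genes with several kept probes, all probes were called in 28, and the probes of 2 genes, Dusp2 and Ccl7, lay more than 1 apart.

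The listed genes are described by their role. The 27 lists together held 516 symbols, of which 382 were tested, 71 were called higher and 1 lower; 53 called features were on no list. Their counts stand beside 1.03% of all features called higher and a median of -0.01. The lists were chosen with earlier results of these data known, so a higher share in them can partly follow from that choice.

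None of the tested sensing machinery passed the call. Of 18 listed members of the Toll-like receptor 4 complex and its proximal signalling 13 were tested. Of these 13, 0 were called by limma (2 higher and 2 lower at an unadjusted p under 0.05), and the median was -0.00. By adjusted p alone 1 was higher and 2 lower, all under 2-fold, beside 3.04% and 2.35% of all features. The kinase gene Map3k8 came closest at 0.47, 1.14 and 0.67, and Tab1, a partner of the kinase upstream of NF-kB, lay lowest at -0.38, -0.76 and -0.76. The transcription factor and its brakes did move. Of 4 tested NF-kB subunits 3 rose: Rel (1.27 ± 0.40), Relb (1.19 ± 0.47) and Nfkb2 (1.11 ± 0.08). Rela stood at 0.71, 0.86 and 0.92, an adjusted p of 2.25e-08 by limma but under 2-fold. Of 4 tested inhibitors and nuclear IkB proteins 3 rose, Nfkbiz, Nfkbie (1.24 ± 0.14) and Bcl3 (1.02 ± 0.47), with a median of 1.13 for the list. Nfkbib was read in opposite directions by the dyes, between -1.68 and -1.18 with LPS RNA in Cy5 and between 1.71 and 2.26 with it in Cy3, and no direction can be given for it. Among TRAF adaptors and ubiquitin-editing regulators 4 of 17 rose: Traf1, the deubiquitinase gene Tnfaip3 (1.99 ± 0.44), the ubiquitin ligase gene Birc3 (1.16 ± 0.10) and Tank (1.00 ± 0.15). Tnip1, a partner of Tnfaip3, missed 2-fold at 0.98 ± 0.37. Without set 1 Relb (0.98), Bcl3 (0.85) and Tank (0.91) fell under 2-fold, and without set 2 Bcl3 did so as well (0.92). Nfkb2, Birc3 and Bcl3 lost the call on the arrays with LPS RNA in Cy5 alone, and Tank on those with it in Cy3 alone.

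Immediate early genes, many of them for transcription factors, rose in several families. Of 15 tested Egr, Klf and Ier genes 6 rose, with a list median of 0.78. Besides Egr1, Egr2 and Ier3 these were Klf10 (2.11, 2.43 and 0.79), Egr3 (1.49, 1.74 and 1.47) and Ier5 (1.64, 0.91 and 1.31). Klf10 was lower in set 3 than in the other sets. Of 10 tested AP-1 members 5 rose, Fosl1, Atf3 (1.80 ± 0.31), Maff (1.74 ± 0.34), Fosl2 (1.70 ± 0.40) and Jund (1.09 ± 0.09), with a list median of 0.85. Jun stood at 0.55, 0.22 and 1.03 and was not called. Jund was called with the dyes averaged, but its 3 arrays with LPS RNA in Cy3 averaged 0.51 and were not called (limma adjusted p = 0.134). In the Myc and Max network Myc was the 1 called of 10, and the next, its antagonist Mxd1, stood at 0.28 ± 0.08. Of 16 genes of the cyclic AMP and CREB response 4 rose: Pde4b, the orphan nuclear receptor gene Nr4a1 (1.80, 1.58 and 1.46), the small GTPase gene Gem (1.76, 1.57 and 1.48) and the calcineurin inhibitor gene Rcan1 (1.11, 1.60 and 1.16). Rcan1 lost its call without any 1 of the sets (limma adjusted p between 0.0534 and 0.163, values between 1.14 and 1.38).

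Genes whose products end the signal rose beside those that carry it. Of 9 tested MAP kinase phosphatases and Sprouty or Spred inhibitors 3 rose, Dusp1 (3.94 ± 0.46), Dusp2 and Dusp16 (1.05 ± 0.11). Dusp8 stood at 0.70, 0.69 and 1.26, under 2-fold on average, although 1 of its probes was called at 1.17. Dusp16 lay at 0.99 without set 1. Of 8 tested mRNA decay factors 3 rose, Btg2 (3.81 ± 0.62), Zfp36 (2.96 ± 0.70) and its relative Zfp36l1 (1.87, 1.60 and 0.88). Btg3 stood at 0.40 ± 0.13. These counts cover a part of each family only, since 7 of 16 listed phosphatases and inhibitors and 10 of 18 decay factors were not tested.

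Upstream sequences of leading genes are shown with matches to known binding motifs of a few transcription factors, whose activity was not measured. The motifs were a short NF-kB motif (GGGNNTTCC or GGNNTTTCC, which can overlap), the CREB site TGACGTCA, the AP-1 site TGACTCA and the CArG box of serum response factor, each searched on both strands in the 250 bases before annotated starts. The sequences are RefSeq's of GRCm38.p6. Of the 25 highest genes 17 had an entry and 7 of these held a motif. In the following 6, printed 5′ to 3′ on the gene's own strand, capitals mark the match. Dusp1 (chr17:26508473-26508722, minus strand) and Btg2 (chr1:134079156-134079405, minus strand) hold the CREB site, Egr2 (chr10:67537316-67537565, plus strand, 1 of 4 annotated starts) and Zfp36 (chr7:28379229-28379478, minus strand) a CArG box, and Pde4b (chr4:102589593-102589842, plus strand) and Ier3 (chr17:35821463-35821712, plus strand) the NF-kB motif.
Dusp1: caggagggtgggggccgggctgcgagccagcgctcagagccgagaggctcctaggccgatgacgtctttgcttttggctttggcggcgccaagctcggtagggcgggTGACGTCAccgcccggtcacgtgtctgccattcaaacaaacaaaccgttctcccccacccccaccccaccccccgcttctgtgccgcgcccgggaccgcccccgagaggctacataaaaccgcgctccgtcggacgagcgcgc
Btg2: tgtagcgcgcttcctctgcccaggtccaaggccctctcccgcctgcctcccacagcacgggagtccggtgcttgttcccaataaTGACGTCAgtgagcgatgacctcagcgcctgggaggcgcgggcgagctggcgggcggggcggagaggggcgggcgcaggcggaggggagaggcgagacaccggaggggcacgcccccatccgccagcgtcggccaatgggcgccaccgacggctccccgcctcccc
Egr2: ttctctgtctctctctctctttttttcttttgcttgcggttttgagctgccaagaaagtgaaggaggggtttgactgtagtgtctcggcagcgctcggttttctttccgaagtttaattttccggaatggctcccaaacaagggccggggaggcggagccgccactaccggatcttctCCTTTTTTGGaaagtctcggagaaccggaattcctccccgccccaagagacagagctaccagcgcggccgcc
Zfp36: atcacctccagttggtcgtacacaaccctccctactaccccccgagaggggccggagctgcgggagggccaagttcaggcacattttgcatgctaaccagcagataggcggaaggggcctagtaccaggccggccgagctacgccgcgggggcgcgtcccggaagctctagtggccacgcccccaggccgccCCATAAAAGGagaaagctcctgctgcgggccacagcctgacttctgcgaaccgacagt
Pde4b: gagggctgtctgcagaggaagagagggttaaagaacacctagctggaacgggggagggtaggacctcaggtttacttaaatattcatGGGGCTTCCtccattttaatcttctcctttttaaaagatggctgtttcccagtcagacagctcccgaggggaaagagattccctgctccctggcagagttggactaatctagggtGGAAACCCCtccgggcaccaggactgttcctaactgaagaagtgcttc
Ier3: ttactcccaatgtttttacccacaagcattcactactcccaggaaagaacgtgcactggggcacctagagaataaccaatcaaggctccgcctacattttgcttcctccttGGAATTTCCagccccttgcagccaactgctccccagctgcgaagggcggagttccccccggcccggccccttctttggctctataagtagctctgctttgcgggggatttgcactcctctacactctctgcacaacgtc
Over the 81 genes called higher that had an entry, 18 (22.2%) held an NF-kB motif, beside 10.95% of 7743 genes tested and 9.43% of 27025 genes with an entry. The CREB site was held by 6 of the 81 (7.41%), beside 2.34% of genes tested, the AP-1 site by 9 (11.1%), beside 4.96%, and the CArG box by 2 (2.47%), beside 1.64%. Over windows, which can be several for a gene, the shares of all 32851 were 8.36% for the NF-kB motif, 1.55% for the CREB site, 4.46% for the AP-1 site and 1.47% for the CArG box. These are letter matches in a short window and not measured binding.

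**Figure D2:**
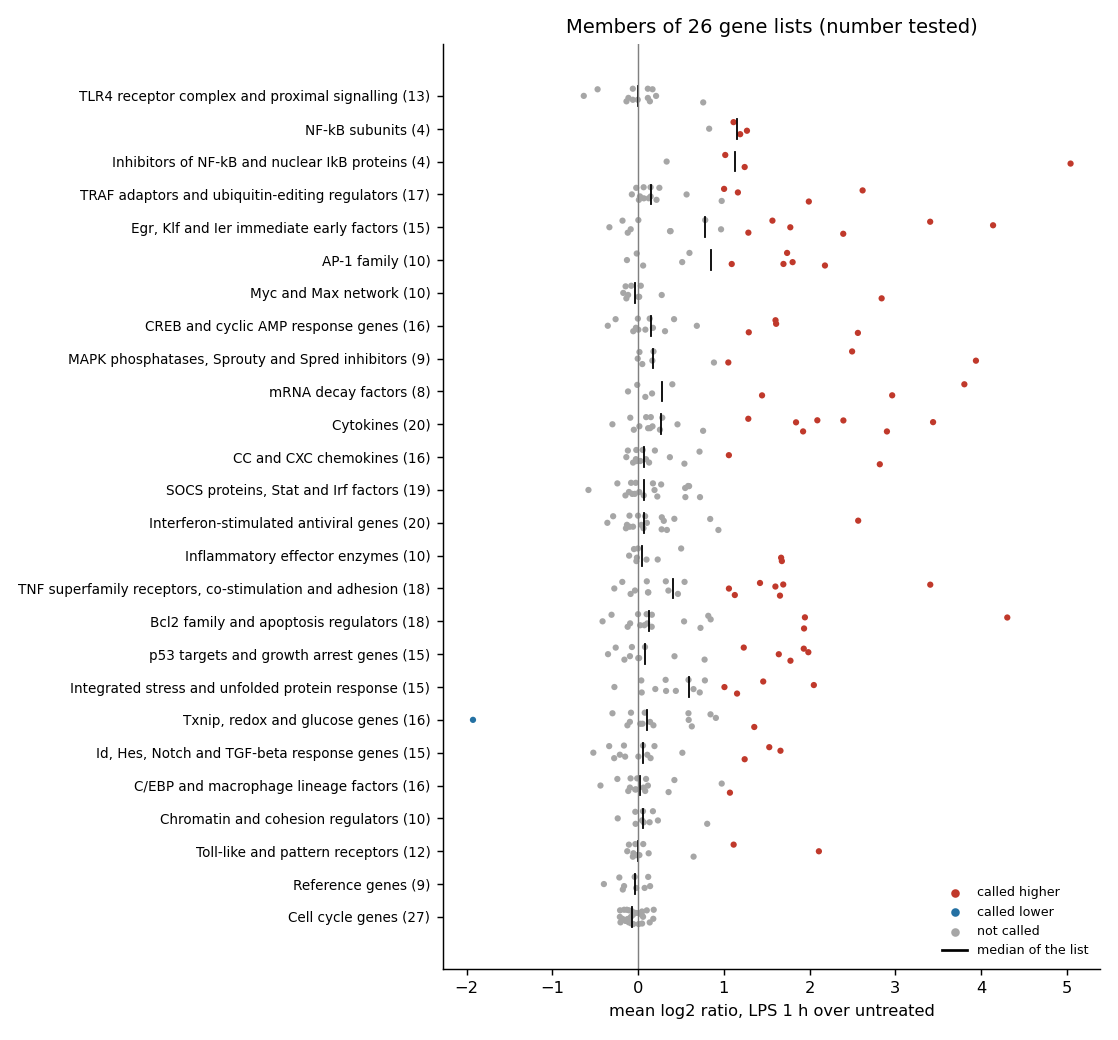
Mean log2 ratio of LPS 1 h over untreated for every tested member of 26 of the lists (number tested in brackets). Red points were called higher, blue lower and grey not called; the black tick is the list's median. In most lists a few called members stand to the right of a bulk near 0, with list medians above 0.5 only for the NF-kB subunits (1.15), their inhibitors (1.13), the AP-1 family (0.85), the Egr, Klf and Ier genes (0.78) and the stress response genes (0.59).

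Of the genes for secreted signals, 7 of 20 tested cytokines rose. Tnf (3.44 ± 0.43) and Il1b (2.90 ± 0.40) were the highest, followed by Tnfsf9. Ifnb1, the interferon of the later antiviral wave, stood at 2.00, 2.07 and 2.21, a mean of 2.09 ± 0.11 (limma adjusted p = 2.45e-06). The granulocyte factor gene Csf3 had 2.16, 1.67 and 1.94, and the anti-inflammatory cytokine gene Il10 had 1.83, 2.01 and 1.69. These 3 were above 2-fold on every array, for Csf3 on its kept probe. Lif came next below the call at 0.76 ± 0.17, although 1 of its probes was called at 1.64, and Il6 was at -0.03, 0.08 and 0.38. Of 16 tested chemokines 2 rose. Ccl4 stood at 2.80 and 2.84 in the 2 sets with a value, and Ccl7 averaged 1.06 ± 0.02 over 3 probes, of which 1 read 0.08. Cxcl16 (0.72 ± 0.13) and Ccl22 (0.54 ± 0.41) were the next.

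Several familiar targets of LPS were on the array but fell outside these counts, because a feature had to have values in at least 2 of 3 sets of all 15 conditions. When values were asked of LPS 1 h only, 12166 features were tested, 127 (1.04%) were higher and 6 (0.0493%) lower. This added 566 features, and 9 further genes were called, all higher. A feature could enter here with values at LPS 1 h and few elsewhere, so the shared direction can partly follow from this rule. The 9 genes are named here after their values were seen. Cxcl2, a chemokine for neutrophils, was the highest of them at 4.98 and 4.00 in sets 1 and 2, without a value in set 3. Acod1, the enzyme that makes itaconate, had 3.76, 3.32 and 4.09, and Cxcl10, a chemokine for T cells, had 3.37, 2.67 and 3.44. The monocyte chemokine gene Ccl2 had 1.95, 2.00 and 2.62, and the early response gene Ier2 had 2.13, 1.46 and 2.53. Nfkbia, the inhibitor that NF-kB raises against itself, stood at 1.92 and 2.02 in the 2 sets with a value (limma adjusted p = 2.94e-06). Il1rn, an antagonist of interleukin 1, stood at 1.59 and 1.53 in sets 1 and 2. The antiviral genes Ifih1 (2.27, 2.01 and 1.70) and Rsad2 (1.68, 1.69 and 2.60) completed the 9. These genes had values on 44 (Ccl2) to 87 (Ier2) of the 90 arrays. Junb had a value on 0 of the 6 LPS 1 h arrays and Ccl3 on 1 of 6 (1.35), so nothing can be said of either.

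Most tested genes of the interferon arm were not called at 1 h. Of 32 listed interferon-stimulated antiviral genes 20 were tested and 1 was called, Ifit3, whose probes disagreed. The list's median was 0.07. By adjusted p alone 3 of the 20 were higher, beside 3.04% of all features. The antiviral genes Ifih1 (2.27, 2.01 and 1.70) and Rsad2 (1.68, 1.69 and 2.60) were outside this count. Both were called once values were asked of LPS 1 h only. Isg15 (0.70, 0.98 and 1.13) and Ifit1 (0.59, 1.01 and 0.92) came next below the call, under 2-fold with limma adjusted p = 0.00107 for Isg15 and 0.00109 for Ifit1. Isg15 depended on the dye, at 0.00, 0.34 and 0.67 with LPS RNA in Cy5 and at 1.40, 1.61 and 1.59 with it in Cy3. Ifit2 stood at -0.00 ± 0.19, Mx1 at -0.10 ± 0.22 and Cmpk2 at 0.06 ± 0.35. Of 19 SOCS, Stat and Irf genes 0 were called by limma (8 higher and 1 lower at an unadjusted p under 0.05). By adjusted p alone 4 were higher and 1 lower, all under 2-fold, beside 3.04% and 2.35% of all features. Irf1 stood at 0.62, 0.19 and 0.97, and Irf4 at 0.55, 1.45 and 0.17. Of 10 effector enzymes and acute-phase genes 2 rose, Saa3 (1.89, 1.64 and 1.50) and the prostaglandin synthase gene Ptgs2 (1.11, 1.93 and 1.97). The superoxide dismutase gene Sod2 was at 0.50 ± 0.13.

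Genes of the cell surface rose in 7 of 18 tested cases. After Cd83 (3.41 ± 0.21) came the urokinase receptor gene Plaur (1.77, 1.65 and 1.66), the receptor gene Tnfrsf12a (1.99, 1.72 and 1.25), the co-stimulatory receptor gene Cd40 (1.46, 2.01 and 1.33), tissue factor F3 (1.24, 1.45 and 1.58) and the integrin gene Itga5 (1.58, 0.86 and 0.95). Itga5 was at 0.90 without set 1. Of 12 Toll-like and pattern receptors 2 rose, Clec4e (2.33, 1.58 and 2.42) and Tlr2 (1.30, 0.92 and 1.13), the receptor of bacterial lipoproteins. Itga5 and Tlr2 lost the call on the arrays with LPS RNA in Cy5 alone.

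Regulators of survival and of growth arrest were among those raised. Of 18 tested apoptosis regulators 3 rose: Phlda1, the caspase inhibitor gene Cflar (2.02, 1.66 and 2.16) and Bcl2l11 (2.38, 1.88 and 1.54), which encodes the death-promoting protein Bim. The members therefore include both a protective and a death-promoting gene. Bcl2a1d (0.85 ± 0.06) and Bcl2a1a (0.82 ± 0.08), survival genes that are near-identical copies and may share signal, stayed under 2-fold. Of 15 p53 targets and growth arrest genes 5 rose: Gadd45b (1.99 ± 0.48), Mdm2 (1.93 ± 0.10), Gadd45a (1.78 ± 0.78) and the kinase genes Plk2 (1.64 ± 0.37) and Plk3 (1.23 ± 0.49). Other p53 targets on the list did not, with Cdkn1a at 0.42 ± 0.04. Plk3 was at 0.95 without set 3 (limma adjusted p = 0.103). Of 15 genes of the integrated stress and unfolded protein responses 4 rose: Ppp1r15a (2.06, 1.52 and 2.58), which directs removal of the phosphate from a translation factor, Herpud1 (1.36, 1.63 and 1.38), Ddit3 (1.23, 1.52 and 0.72) and the chaperone gene Dnajb1 (0.94, 1.23 and 0.85). Without set 2 Ddit3 (0.97) and Dnajb1 (0.90) fell under 2-fold. Dnajb1 also lost the call on the arrays with LPS RNA in Cy3 alone. Of 15 Id, Hes, Notch and TGF-beta genes 3 rose, Skil (1.66 ± 0.40), Id3 (1.53 ± 0.36) and Tgif1 (1.24 ± 0.17).

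Few genes fell. Txnip, an arrestin-like protein that binds thioredoxin and restrains glucose uptake, had -2.00, -1.57 and -2.20, a mean of -1.93 ± 0.32 (limma adjusted p = 1.22e-08). Sfi1, a centrosome protein, had -2.03, -1.41 and -1.75, a mean of -1.73 ± 0.31. Cnr2, a cannabinoid receptor of immune cells, had -1.07, -1.12 and -1.24, a mean of -1.14 ± 0.08. The other 3 of the 6 lower features were probes without a gene name. Cnr2 averaged -0.94 on the arrays with LPS RNA in Cy3 alone, so its call is that of the averaged dyes. In Txnip's list of 16 redox and glucose genes, Bhlhe40 was the 1 that rose (1.36 ± 0.24), and the hypoxia target Vegfa (0.84 ± 0.28) and the antioxidant gene Srxn1 (0.91 ± 0.19, 2 sets) stayed under 2-fold.

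The lists of lineage, chromatin, cell cycle and reference genes had medians close to 0 (0.03, 0.06, -0.07 and -0.04), with single members further away. Of 16 C/EBP and macrophage lineage factors Cebpb was the 1 that rose (1.20, 1.10 and 0.92), and Ets2 averaged 0.98 ± 0.66 with a set 3 value of 0.22. Cebpb lost the call on the arrays with LPS RNA in Cy5 alone. Of 10 chromatin regulators 0 were called by limma (1 higher at an unadjusted and also at an adjusted p under 0.05). Brd2 was next at 0.81 ± 0.18. Its arrays read between 0.98 and 2.40 with LPS RNA in Cy5 and between -0.46 and 0.38 with it in Cy3. Of 27 cell cycle genes 0 were called (1 lower at an unadjusted p under 0.05), with values between -0.21 and 0.18. Of 9 reference genes 0 were called (1 lower at an unadjusted p under 0.05), with values between -0.40 (Pgk1) and 0.14.

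How the 1 h response compared with later times was asked by testing the difference of the 1 h mean from the 2 h and from the 4 h mean of LPS. The 2 h ratio differed in 100 features (0.862%), of which 26 (0.224%) were higher at 1 h and 74 (0.638%) lower at 1 h. The 4 h ratio differed in 427 (3.68%), of which 108 (0.931%) were higher at 1 h and 319 (2.75%) lower at 1 h. Of the 119 features called higher at 1 h, 86 were also called higher at 2 h, where 1.84% of all features were, and 77 at 4 h, where 3.64% were. All 3 times called 72 of them, and 28 were called at 1 h and at neither later time. Of the 119, 12 were higher at 1 h than at 2 h and 12 lower, and against 4 h 33 were higher and 17 lower. The 119 were chosen by their 1 h values, which also enter these differences, so the counts higher at 1 h partly follow from the choice.

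A group of features was lower at 2 h than at 1 h. Egr1 averaged 4.14 ± 1.22 at 1 h, 0.61 ± 1.69 at 2 h and 2.64 ± 0.64 at 4 h, so it was lower at 2 h by 3.53, SE 0.69 (limma adjusted p = 0.00177), and not lower by the test at 4 h. Btg2 averaged 3.81, 0.98 and 0.65 at 1, 2 and 4 h, a difference of 2.83, SE 0.41 between 1 h and 2 h. Arc, a gene best known from synapses, averaged 3.25 in the 2 sets with a value at 1 h, then 0.88 and 1.20. With exact zeros kept as ratios of 1, its difference from 2 h was 1.70 and not called (limma adjusted p = 0.0637). Klf10 averaged 1.78, -0.18 and -0.27, Sertad1 2.19, 0.40 and 0.69, and Tcim 1.96, 0.42 and -0.47. Jun differed as well (0.60, -1.02 and -0.04), although it was not called at 1 h. Without set 3 of LPS 1 h the Tcim difference was 1.04 and not called (limma adjusted p = 0.181). The difference of Ddit4 from 2 h (1.72, SE 0.45) was lost without any of 5 sets (limma adjusted p between 0.0585 and 0.192). Of the 12 features called higher at 1 h that were lower at 2 h by the test, 10 were also higher at 1 h than at 4 h. Arc, 1 of these 10, was still called higher than untreated at 4 h (limma adjusted p = 0.00124).

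**Figure D3:**
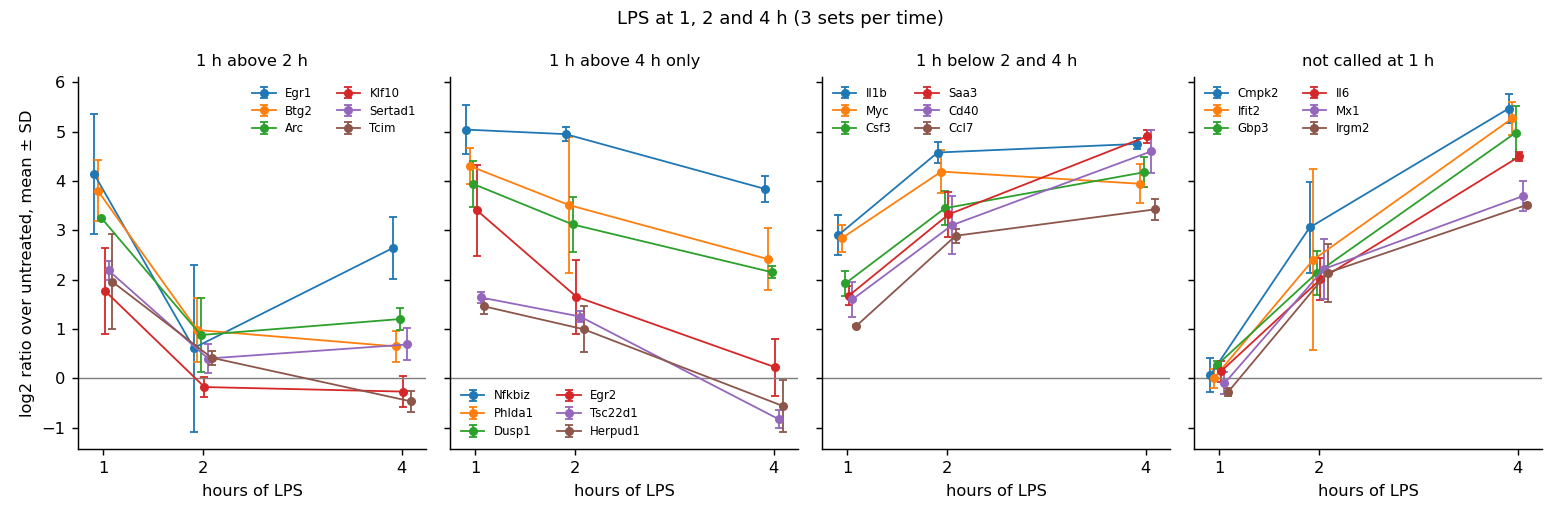
Log2 ratio over time-matched untreated RNA (mean ± SD over sets) after 1, 2 and 4 h of LPS for 4 groups of 6 genes, each group defined by the tested differences of 1 h from later times. Genes higher at 1 h than at 2 h drop by 2 h (Btg2 3.81, 0.98 and 0.65), and the Egr1 mean rises again at 4 h. Nfkbiz and Dusp1 decline slowly, Il1b climbs (2.90, 4.58 and 4.75), and Cmpk2 and Ifit2 start near 0 and exceed 5 at 4 h.

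A slower group was still high at 2 h and lower at 4 h. Nfkbiz averaged 5.04, 4.95 and 3.84 at 1, 2 and 4 h, Phlda1 4.31, 3.51 and 2.42, and Dusp1 3.94, 3.12 and 2.15. Egr2 averaged 3.41, 1.65 and 0.22, a difference of 3.18, SE 0.65 between 1 h and 4 h (limma adjusted p = 0.000411). Tsc22d1 averaged 1.64, 1.25 and -0.83, and Herpud1 1.46, 1.00 and -0.56, so both ended below 0. Lpin1, an enzyme of lipid synthesis that was not called at 1 h (0.12 ± 0.26), was lowest at 4 h at -2.00 and differed by 2.12, SE 0.32.

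Another group was called at 1 h and stood higher at both later times. Il1b averaged 2.90, 4.58 and 4.75 at 1, 2 and 4 h, Myc 2.84, 4.19 and 3.95, and Csf3 1.92, 3.45 and 4.18. Saa3 averaged 1.68, 3.32 and 4.91, Cd40 1.60, 3.11 and 4.60, and Ccl7 1.06, 2.89 and 3.43. In 10 features called higher at 1 h the 1 h ratio was lower than at both later times. Among genes not called at 1 h, the largest gaps to 2 h were in Cmpk2 (0.06 against 3.06, difference -3.00, SE 0.33, limma adjusted p = 1.24e-07), Ifit1 (0.84 against 3.63), the niacin receptor gene Hcar2 (-0.24 against 2.37) and Mx2 (0.28 against 2.89). Irgm2, Ifit2, Mx1 and Trim21 followed, and 6 of these 8 genes are on the antiviral list, which held 20 of the 11600 features. The 8 were picked as the extremes of this difference, and the list was chosen with earlier results of these data known. Their overlap is therefore a description and not a test. Against 4 h the largest gaps were in Cmpk2 (0.06 against 5.47), Ifit2 (-0.00 against 5.27), the guanylate-binding protein gene Gbp3 (0.27 against 4.98) and Il6 (0.14 against 4.50). The 2 h values of Ifit2 spread by an SD of 1.84, and without set 1 of LPS 2 h its difference from 2 h was -1.84 and not called (limma adjusted p = 0.0613).

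The genes that fell differed in their later course. Sfi1 averaged -1.73, 0.01 and 0.60 at 1, 2 and 4 h, and its 1 h ratio was below those of both later times. Txnip averaged -1.93, -1.46 and -0.48 and was lower at 1 h than at 4 h. Cnr2 averaged -1.14, -1.13 and -1.30 and had no called difference.

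LPS at 1 h was also compared with another stimulus of the same length, the purine receptor agonist 2MA. LPS 1 h differed from 2MA 1 h in 85 features (0.733%), 71 (0.612%) higher with LPS and 14 (0.121%) lower. Of the 119 features called higher with LPS, 61 were higher than with 2MA and 1, Ccl7, was lower. The 119 were chosen by LPS 1 h values that also enter this difference, so the split partly follows from the choice. Nfkbiz averaged 5.04 ± 0.50 with LPS and 2.34 ± 1.21 with 2MA, a difference of 2.71, SE 0.36 (limma adjusted p = 5.36e-06). Dusp1 averaged 3.94 with LPS and 1.48 with 2MA, and Phlda1 4.31 with LPS and 1.88 with 2MA. Tnfsf9 (2.39 with LPS, 0.01 with 2MA), Gpr84 (2.76 with LPS, 0.43 with 2MA) and Bcl2l11 (1.94 with LPS, -0.37 with 2MA) were near 0 with 2MA. Id3 had opposite signs, 1.53 ± 0.36 with LPS and -1.15 ± 0.08 with 2MA, a difference of 2.68, SE 0.26. In these 7 genes the LPS sets lay above those of 2MA, as the rule by which they were named required. The Phlda1 difference was lost without set 3 of LPS 1 h (2.22, limma adjusted p = 0.0558) or of 2MA (2.20, limma adjusted p = 0.0667). Lynx1 differed by 2.84 on its kept probe and by 1.03, not called, with both probes.

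**Figure D4:**
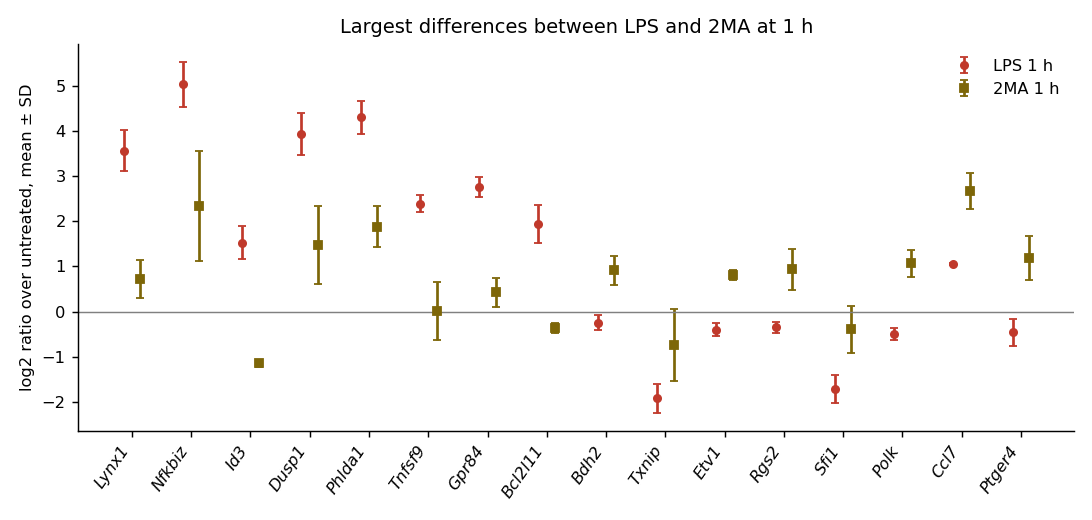
Log2 ratio over untreated RNA (mean ± SD over sets) for the 8 genes highest and the 8 lowest in the difference LPS 1 h minus 2MA 1 h among called genes whose sets do not overlap. Red circles are LPS 1 h and brown squares 2MA 1 h. Tnfsf9, Gpr84 and Bcl2l11 are raised with LPS and near 0 with 2MA, Id3 lies on opposite sides of 0, and Ccl7 is higher with 2MA (1.06 with LPS, 2.67 with 2MA).

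The genes lower with LPS than with 2MA were led by the prostaglandin receptor gene Ptger4 (-0.46 with LPS, 1.19 with 2MA, difference -1.65, SE 0.33) and Ccl7 (1.06 with LPS, 2.67 with 2MA, difference -1.61, SE 0.23). The DNA polymerase gene Polk (-0.50 with LPS, 1.07 with 2MA), the G protein regulator gene Rgs2 (-0.35 with LPS, 0.93 with 2MA) and the Ets factor gene Etv1 (-0.40 with LPS, 0.82 with 2MA) followed. The Txnip difference was -1.18, SE 0.30 (-1.93 with LPS, -0.74 with 2MA), but this call was lost in 7 alternatives, among them those without sets 1 or 3 of LPS 1 h or sets 2 or 3 of 2MA (adjusted p by limma between 0.0939 and 0.225). The Rgs2 difference was -1.02 and not called without set 1 of 2MA (limma adjusted p = 0.108). Not every leading gene separated the stimuli. Egr1 averaged 4.14 with LPS and 3.81 with 2MA, Egr2 3.41 with LPS and 4.40 with 2MA, Myc 2.84 with LPS and 2.54 with 2MA, and Zfp36 2.96 with LPS and 2.32 with 2MA. These 4 differences were not called, which does not show that the responses were equal. The labels do not say whether the treatments at 1 h shared untreated RNA, and a shared control would enter both ratios.

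Values of the other 1 h groups are set beside these for the leading genes, with no test and with the same doubt about shared controls. Nfkbiz averaged 5.04 with LPS, 5.04 with LPS+IFG, 5.24 with LPS+2MA and 0.56 with IFG. Tnf averaged 3.44 with LPS, 3.39 with LPS+IFG, 3.83 with LPS+2MA and 0.32 with IFG. Txnip averaged -1.93 with LPS, -2.25 with LPS+IFG, -2.42 with LPS+2MA and -0.17 with IFG. Where LPS was present these 3 genes lay close together, and with IFG alone they lay nearer 0. Other genes had more unequal means. Cd40 averaged 1.60 with LPS, 3.46 with LPS+IFG, 1.28 with LPS+2MA and 0.61 with IFG. Nr4a1 averaged 1.61 with LPS, 0.79 with LPS+IFG, 3.54 with LPS+2MA and 0.06 with IFG. Irf1 averaged 0.60 with LPS, 3.87 with LPS+IFG, 0.66 with LPS+2MA and 3.45 with IFG. Sfi1 averaged -1.73 with LPS, -0.47 with LPS+IFG, -1.62 with LPS+2MA and 0.75 with IFG.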

How the data were processed

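Per the labels, treated RAW 264.7 RNA and untreated RNA of the same time were hybridised together, in 2 colours, to a custom Agilent array. The authors deposited log2 ratios, whose scale follows from the values: 14 of them lie at the log2 of 100 (6.64) and none beyond it. Image reading, background correction and normalization are not given in the sources used here. Depth has no meaning for arrays; their number limits the precision. Exact zeros (8.38 to 12.3% of values on the LPS 1 h arrays) were taken for missing values; 753 of 16281 probes held nothing else in the whole series.

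The platform annotation gave 1 gene for 13738 probes and several for 52, and did not list 2491. Gene IDs were updated through the reference gene table (99.7% found). A set value needed both arrays of a dye swap. Probes with values in at least 2 of 3 sets of every condition were kept (13711) and averaged per gene, giving 11600 features with 1.05% of set values missing. The 45 sets entered 1 model with 15 condition means, tested with limma 3.58.1 in R 4.3.3 (at most 30 residual degrees of freedom, prior 5.82 degrees of freedom, prior SD 0.185), two-sided, with Benjamini-Hochberg adjustment over all features of a comparison. Called means an adjusted p under 0.05 and at least 2-fold. On simulated data for LPS 1 h against untreated (11600 features, 50 changed at each size) the fit called 52% at a log2 change of 1 and 100% at 1.5, 2 and 3, with 0 false calls. The simulated noise was independent and normal with the fitted spread, and had no dye bias, set pairing or shared control. For most unchanged features the 2-fold limit lies far outside that spread, so the false calls say little about the real arrays. Figures were drawn with matplotlib 3.10.9, and tables made with numpy 2.4.6, pandas 2.3.3 and Python 3.11.15.

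The result of 1 gene list is not reported here. The comparisons, gene lists and naming rule were chosen with earlier results of these data known. Named were, among called genes whose 6 arrays lay on 1 side of 0, the 25 highest and up to 12 lowest, from each list at most 6 called members and the 2 next below the call, and for each difference the 8 highest and 8 lowest called genes whose sets do not overlap; other names are said to be chosen after their values were seen. Beyond this rule, genes just at the 2-fold limit, listed genes and members of the compared groups are given as values only.

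Deviations of same-numbered sets from their group means correlated at 0.40, 0.21 and 0.51 between LPS 1 h and 2MA 1 h, so set numbers paired these samples, by the data and not by the labels. They did not between LPS 1 h and LPS 2 h (-0.24, 0.10 and 0.30) or LPS 4 h (-0.30, 0.04 and 0.26). Alternatives changed the arrays used by dye, array scaling, zeros, filter, fit, probe handling, thresholds, set block and sets left out.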

Additional observations from a re-analysis of the deposited data

Results flagged for a closer look

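In 8 of 151 named genes, 1 of the 6 arrays lay far from the other 5 by Dixon's test; chance alone flags about 1 in 20 groups of values. Tnf read 4.37 on the set 3 array with LPS RNA in Cy5, against 2.90 to 3.43 on the others. Cd83 read 2.83 on the set 2 array with LPS RNA in Cy5, against 3.39 to 3.64. Sertad1 read 2.77 on the set 1 array with LPS RNA in Cy3, against 2.01 to 2.22. Rcan1 read 1.88 on the set 2 array with LPS RNA in Cy3, against 1.07 to 1.32. Cflar read 1.41 on the set 2 array with LPS RNA in Cy5, against 1.90 to 2.18, and Bhlhe40 read 2.07 on the set 1 array with LPS RNA in Cy5, against 0.99 to 1.34. Tgif1 read 0.74 on the set 2 array with LPS RNA in Cy5, against 1.21 to 1.46, and Elf1 read -1.56 on the set 2 array with LPS RNA in Cy3, against -0.56 to -0.03. Set 2 holds 5 of these 8 arrays. The part of any array in these values was not tested.

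The LPS ratio at 1 h differed by test from that at 2 h in 100 features and from that at 4 h in 427, and it differed from the 2MA ratio at 1 h in 85.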

How the results depend on the processing

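For the 4 comparisons, alternatives changed the arrays used by dye, array scaling, missing values, filter, fit and sets left out. None changed the assumed direction of the ratio. By adjusted p alone LPS 1 h called 626 features (353 higher, 273 lower), and the differences 261 from LPS 2 h (79 higher, 182 lower), 1596 from LPS 4 h (789 higher, 807 lower) and 164 from 2MA (113 higher, 51 lower). With a 3-fold minimum these were 64 (62 higher, 2 lower), 39 (7 higher, 32 lower), 164 (20 higher, 144 lower) and 33 (30 higher, 3 lower). The count most open to the data's handling was that of lower features at LPS 1 h: 6 became 59 on the arrays with LPS RNA in Cy5 alone, 9 on those with it in Cy3 alone and 21 once arrays were scaled to 1 spread. The cause was not tested. Leaving out a set gave 112 to 121 higher and 5 to 9 lower features at LPS 1 h, and 109 to 112 of the 119 higher remained.

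The replicate block gave 125 features for LPS 1 h, 112 and 433 for the differences from LPS 2 h and LPS 4 h, whose sets do not pair, and 99 (83 higher, 16 lower) against 85 for 2MA, within 1.5 times. Leaving out sets gave 78 to 127, 386 to 488 and 66 to 118 for the 3 differences.

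Of 81 called named genes 64 kept the call in every alternative run at gene level that held the gene. Not every alternative held every gene. Nfkbib turned to -1.38 with LPS RNA in Cy5 alone and stood at 2.04 with it in Cy3 alone. By the same count, of 16 named genes per difference 12 kept the call for LPS 2 h, 15 for LPS 4 h and 12 for 2MA. Arc was lost from both LPS differences with zeros kept. Since only ratios were given, signal over background could not be weighed.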

Other observations

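Outside the listed families, 53 called features remained. The genes among them named here were chosen after their values were seen. Several act on signalling or traffic in immune cells: Peli1, a ubiquitin ligase of Toll-like receptor signalling, stood at 1.71, 1.68 and 1.90, Stx11, a syntaxin of secretory granules, at 2.17, 1.68 and 2.02, Rabgef1 at 1.35, 1.46 and 1.45 and Slfn2 at 2.02, 1.46 and 1.83. Odc1, the first enzyme of polyamine synthesis, stood at 2.00, 1.49 and 1.87, and the choline kinase gene Chka at 1.50, 0.98 and 1.86. The phosphate carrier gene Slc20a1 averaged 1.61 ± 0.41 and the amino acid transporter gene Slc16a10 1.03 ± 0.15. Chka averaged 1.44, 0.07 and -0.44 at 1, 2 and 4 h, with a called difference from both later times, whereas Odc1 averaged 1.79, 2.39 and 2.82. The nocturnin gene Noct averaged 1.48 ± 0.18 and the AP-1 repressor gene Jdp2 1.58 ± 0.31. Of the unnamed probes 10 were higher and 3 lower, and the highest averaged 3.40 and 3.15.

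Among features lower by limma's adjusted p but by less than 2-fold were genes of transcription control: Hhex (-0.89, -1.14 and -0.86, with 1 probe called at -1.14), Cbx8 (-1.27, -0.86 and -0.58), Zfp398 (-1.09, -0.60 and -0.89) and Tsc22d3, a glucocorticoid-induced gene (-0.87, -0.99 and -0.55). Cbx8 averaged -0.90, -1.11 and -1.44 at 1, 2 and 4 h, and Tsc22d3 -0.80, -1.57 and -1.58. Hhex averaged -0.97, -0.91 and 0.33. These genes too were named after their values were seen, and their differences between times were not examined one by one.

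Ccl5 and Ccrl2 are cases where a probe outside the filter read far higher than the kept one. For Ccl5 the probe left out averaged 2.09 and the kept one -0.06. For Ccrl2 they averaged 2.82 and 0.14. Which of the probes reads the gene was not tested.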
